A study of Mus musculus with 20 samples.

Results

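The 38 genes described here encode the machinery of mitosis: the kinases and cyclins of mitotic entry, the kinetochore and its checkpoint, the chromosomal passenger complex, the mitotic kinesins, other spindle and chromosome proteins, and the factors of mitotic exit. They were taken by name from a list of mitotic genes that was drawn up with earlier results of these data known, and all 38 were present among the 24885 genes of the deposited count table. RNA was sequenced from mouse plantaris tendon in 20 libraries, 4 in each of 5 groups. Every animal carried IGF1Rflox/flox, a receptor gene that Cre recombinase can cut. WT animals were ScxCreERT2-/-, without Cre, and KO animals were ScxCreERT2+/+, in which a tamoxifen-activated Cre is driven from Scx, a transcription factor gene of tendon cells. The WT day 0 tendons had neither tamoxifen nor the growth stimulus. Tendons of both genotypes that had tamoxifen and the stimulus were taken at day 7 and at day 14. Because the day 0 tendons had neither and the later tendons had both, stimulus and tamoxifen cannot be told apart against day 0. No KO group without the stimulus was analysed here, so genotype cannot be told apart from them in the KO groups against day 0. Animal age and sex, and whether a library came from 1 animal or a pool, are not given in the labels.

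In a dividing cell, CDK1 bound to cyclins A and B drives entry into mitosis, and the kinases PLK1, AURKA and AURKB organise the spindle. Kinetochores tie each chromosome to spindle microtubules, and the checkpoint kinases BUB1, TTK and the BUBR1 protein made from Bub1b hold back the anaphase-promoting complex (APC/C) until all are attached. CDC20 then activates the APC/C, which marks cyclin B and securin for destruction so that separase, made from Espl1, can open the cohesin rings. Adult tendon cells divide rarely, and most mitotic genes are transcribed late in the cycle, from promoters that often hold a cell cycle genes homology region (CHR) and CCAAT boxes.

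Library totals ran from 32254411 to 63522834 counts. All 38 genes passed the filter on low counts, and the smallest count of any of them in any library was 19. Levels are given as CPM, counts scaled to a common library size after TMM normalization, or, between genes, as CPM per kilobase of exon (FPKM). Gene positions are those of GRCm38. The 10 tendon fibroblast markers were detected in all libraries, and so were the 20 skeletal muscle fibre markers and the 15 macrophage markers. The tissue therefore held transcripts of several cell types, and fewer dividing cells and less mitotic RNA per cell cannot be told apart in these bulk samples. Scx, the gene at which Cre is expressed, was at 556.9 to 1958 CPM in the libraries labelled KO and at 31.36 to 141.6 CPM in those labelled WT. Igf1r was not lower in the libraries labelled KO: it was 51.3 ± 2.81 CPM (SD, n = 4) at KO day 7 against 49.2 ± 2.17 at WT day 7, and 53.1 ± 4.996 at KO day 14 against 45.3 ± 3.63 at WT day 14. Because the counts pool all exons of Igf1r, loss of a floxed segment would not be resolved, and the deletion is unchecked here.

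The promoters of the genes are described first. Whether their motifs bear on the changes given below was not tested. RefSeq promoter windows, from 250 bases before to 50 bases after the transcription start (GRCm38.p6), were matched for 32 of the 38 genes. The motifs searched, on both strands, were the CHR as TTTGAA, the CCAAT box as CCAAT, and an E2F site as TTTGGCGC, TTTCCCGC, TTTGCCGC or TTTCGCGC. Different motifs can share letters only at their ends. The search was added after the other tests were planned, is a description only, and the windows printed were chosen after their matches were seen. The CHR letters were found in 24 of the 32 genes (75%), against 20.2% of 27025 genes with a window, and within 50 bases of the start in 22 (68.8%) against 5.72%. A CCAAT box was found in 23 (71.9%) against 41.1%, and both motifs in 20 (62.5%) against 7.97%. At least 2 CCAAT boxes with a CHR stood in 14 genes (43.8%) against 2.42%. E2F letters were found in 2 genes (6.25%) against 2.6%. For comparison, 13 of the 30 matched DNA replication genes (43.3%) held E2F letters and 4 (13.3%) a CHR, and 2 of the 13 matched core subunits of the APC/C (15.4%) held a CHR. A CHR was found in 36.1% of the other kinetochore genes and 43.9% of the other spindle genes. The CCAAT box was about as common in related lists as in the 38 genes, at 63.3% of the DNA replication genes, 63.9% of the other kinetochore genes and 65.9% of the other spindle genes.

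The windows below run from 130 bases before to 19 bases after the position of the start, 5′ to 3′ on the strand of the gene, with the letters of a CHR or a CCAAT box, on either strand, in capitals. The first 6 hold both motifs, Ccnb1 holds CCAAT boxes without these CHR letters, and Nuf2 holds neither. They lie, in order, with Cdk1 at chr10:69352893-69353042 (minus strand), Ccnb2 at chr9:70421535-70421684 (minus strand), Cdc20 at chr4:118437324-118437473 (minus strand), Top2a at chr11:99024170-99024319 (minus strand), Kif11 at chr19:37376252-37376401 (plus strand), Aspm at chr1:139454643-139454792 (plus strand), Ccnb1 at chr13:100786467-100786616 (minus strand) and Nuf2 at chr1:169531445-169531594 (minus strand).
Cdk1: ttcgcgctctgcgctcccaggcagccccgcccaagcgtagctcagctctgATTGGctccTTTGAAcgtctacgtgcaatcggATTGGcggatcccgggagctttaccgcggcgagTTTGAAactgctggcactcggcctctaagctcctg
Ccnb2: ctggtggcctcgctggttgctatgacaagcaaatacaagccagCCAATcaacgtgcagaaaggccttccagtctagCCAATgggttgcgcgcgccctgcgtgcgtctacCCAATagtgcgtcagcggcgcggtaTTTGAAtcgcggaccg
Cdc20: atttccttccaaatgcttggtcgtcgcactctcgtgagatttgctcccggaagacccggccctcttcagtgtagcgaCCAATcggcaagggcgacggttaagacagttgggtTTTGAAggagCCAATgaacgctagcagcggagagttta
Top2a: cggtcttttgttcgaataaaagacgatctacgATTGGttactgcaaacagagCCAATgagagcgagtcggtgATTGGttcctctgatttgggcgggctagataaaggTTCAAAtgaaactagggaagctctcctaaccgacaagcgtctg
Kif11: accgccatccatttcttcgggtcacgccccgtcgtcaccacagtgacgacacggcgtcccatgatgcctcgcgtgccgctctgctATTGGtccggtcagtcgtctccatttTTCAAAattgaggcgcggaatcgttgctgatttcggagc
Aspm: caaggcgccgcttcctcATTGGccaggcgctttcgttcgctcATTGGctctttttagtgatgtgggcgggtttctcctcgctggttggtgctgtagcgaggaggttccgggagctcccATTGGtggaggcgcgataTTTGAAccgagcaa
Ccnb1: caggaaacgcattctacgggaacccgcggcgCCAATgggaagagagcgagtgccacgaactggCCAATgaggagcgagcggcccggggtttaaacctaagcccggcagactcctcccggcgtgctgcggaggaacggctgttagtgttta
Nuf2: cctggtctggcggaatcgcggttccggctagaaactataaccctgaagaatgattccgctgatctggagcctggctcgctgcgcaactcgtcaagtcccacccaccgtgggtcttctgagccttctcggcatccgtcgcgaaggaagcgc

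The CHR of Cdk1 nearest the start spans positions -15 to -10, that of Kif11 -19 to -14 on the other strand, that of Cdc20 -18 to -13 and that of Top2a, also on the other strand, -23 to -18. In Ccnb2 and Aspm the CHR lies just after the start, at positions 4 to 9 and 6 to 11. The CCAAT boxes of Ccnb2 repeat every 33 bases, and those nearest the start in Cdk1 and in Ccnb1 are 32 bases apart. A match of letters is a description and does not show that a factor binds. From WT day 0 to WT day 7 the median log2 change was 3.73 in the 24 genes with a CHR and 4.12 in the 8 without. The windows of Nuf2, Melk, Birc5, Nusap1 and Mad2l1 hold neither motif. Nuf2 rose by 4.33, Nusap1 by 2.69 and Mad2l1 by 2.29, with Melk and Birc5 between Nuf2 and Nusap1.

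From day 0 to day 7 of the growth stimulus in WT tendon, all 38 genes rose. The median log2 change was 3.69, close to the changes of Tpx2 and Cdc20, and the range ran from 1.90 for Espl1 to 4.82 for Kif2c (edgeR quasi-likelihood test, Benjamini-Hochberg adjusted p below 0.05 over 18918 genes). Of all genes tested, 32.3% were called higher and the median log2 change was 0.02. A change of at least 4-fold passed the test in 37 of the 38 genes and in 5.83% of all genes. The libraries of the 2 groups did not overlap for any of the 38, while 30.4% of all genes were separated in this direction. The summed level of the 38 genes went from 129.7 ± 13.7 CPM at WT day 0 to 1488 ± 214 CPM at WT day 7 (SD, n = 4).

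**Figure D1:**
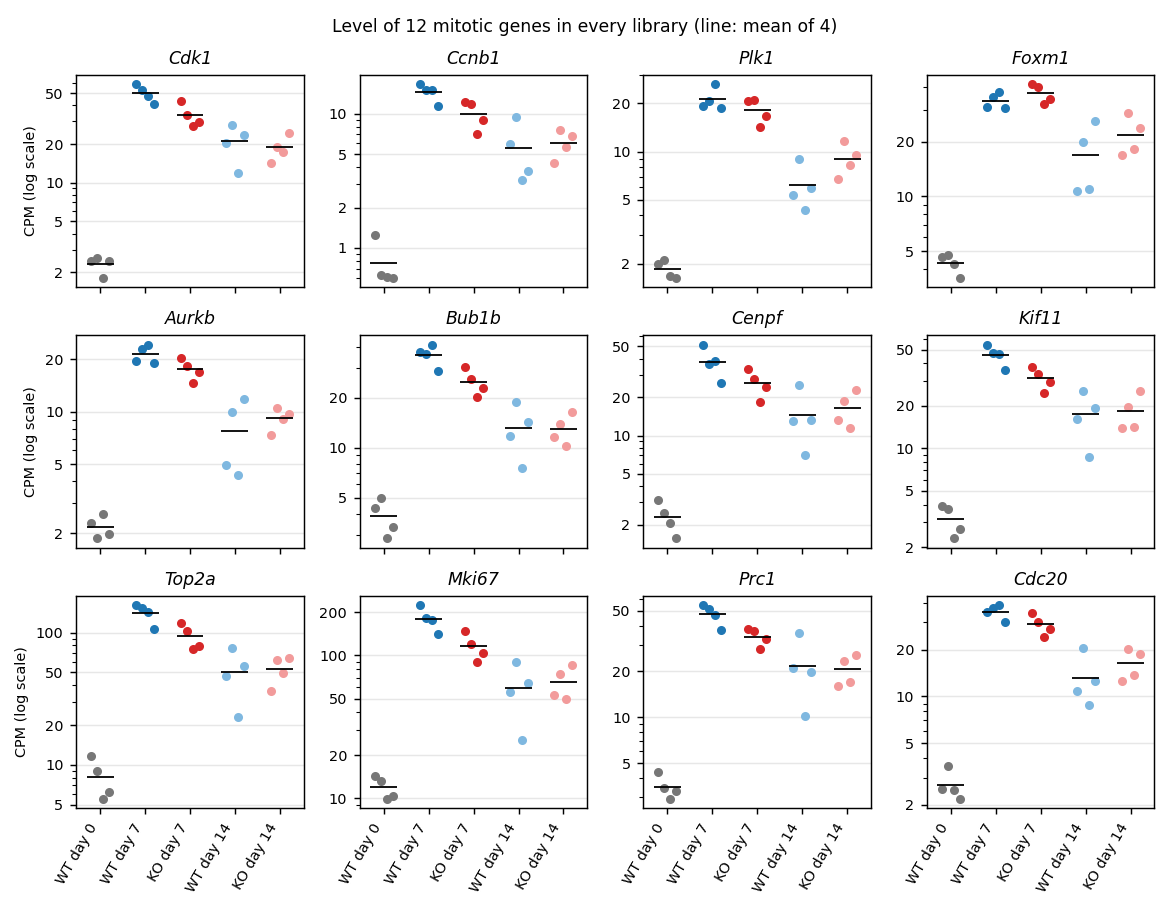
CPM (log scale) of 12 mitotic genes in each of the 20 libraries, by group, with the mean of 4 libraries as a line. In each panel the mean is lowest at WT day 0, highest at the day 7 groups and between them at day 14, and single libraries of KO day 7 and day 14 overlap for some genes.

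Among the genes of mitotic entry, Cdk1, the catalytic kinase subunit (chr10:69335146-69352938), stood at 2.45, 2.59, 1.81 and 2.43 CPM in the WT day 0 libraries, replicates 1 to 4. At WT day 7 it stood at 58.6, 53.2, 47.1 and 40.8 CPM, so the lowest day 7 library was well above the highest day 0 library. The change was 21.5-fold (log2 4.43 ± 0.25 SE, adjusted p = 9.14e-11). Ccnb1, which encodes cyclin B1 (chr13:100778650-100786570), was at 1.25, 0.634, 0.604 and 0.602 CPM at WT day 0 and at 16.5, 15.04, 15.1 and 11.4 CPM at WT day 7, a 19.2-fold change (adjusted p = 5.15e-09). Replicate 1 of WT day 0 lay apart from its 3 fellow libraries for this gene. Plk1, the polo-like kinase (chr7:122159439-122169873), rose 11.4-fold, from 1.64 to 2.12 CPM at WT day 0 to 19.2, 20.7, 26.4 and 18.6 CPM at WT day 7. Foxm1, a transcription factor that activates late cell cycle genes (chr6:128362967-128376146), rose 7.75-fold, from 3.59 to 4.80 CPM to 30.5 to 37.4 CPM. Of the 8 entry genes, Aurka, the centrosomal Aurora kinase, rose least on the log2 scale, by 2.56.

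In the checkpoint and kinetochore group, all 9 genes rose, with a median log2 change of 4.06. Bub1b, the checkpoint component BUBR1 (chr2:118598211-118641591), was at 4.34, 4.99, 2.85 and 3.35 CPM at WT day 0 and at 37.8, 36.7, 41.5 and 28.9 CPM at WT day 7, a 9.31-fold change. Cenpf, a large kinetochore protein (chr1:189640606-189688086), was at 3.12, 2.46, 2.04 and 1.56 CPM and then at 51.5, 36.6, 38.2 and 25.9 CPM, a 16.7-fold change. The WT day 7 libraries differed from each other for Cenpf more than for Bub1b, yet each was far above day 0. Cenpe, the kinetochore motor, rose by 4.44 and Nuf2, part of the NDC80 complex that grips microtubules, by 4.33 on the log2 scale. Mad2l1, which encodes the checkpoint effector MAD2, rose least of the 9, by 2.29.

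The 4 genes of the chromosomal passenger complex, which corrects faulty attachments, rose by a median of 3.26 on the log2 scale. Aurkb, its kinase (chr11:69045647-69051664), went from 2.29, 1.87, 2.58 and 1.97 CPM to 19.7, 23.1, 24.3 and 19.1 CPM, a 9.89-fold change with no overlap. Incenp, the scaffold of the complex, rose by 2.36 and was the most abundant of the 38 genes per length at WT day 0, at 2.06 FPKM. The 6 mitotic kinesins rose by a median of 3.87. Kif11, the motor that pushes spindle poles apart (chr19:37376403-37421859), went from 3.91, 3.74, 2.31 and 2.67 CPM to 54.3, 47.6, 46.4 and 35.7 CPM, a 14.6-fold change. Kif2c, a kinesin that depolymerises microtubules, had the largest change of all 38 genes, 28.3-fold, from 0.855 ± 0.106 CPM to 24.1 ± 3.85 CPM (SD, n = 4).

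The 8 spindle and chromosome genes rose by a median log2 change of 3.84. Top2a, which untangles sister DNA (chr11:98992943-99024189), went from 11.6, 9.04, 5.56 and 6.26 CPM at WT day 0 to 160.7, 152.0, 144.2 and 106.3 CPM at WT day 7, a 17.4-fold change. Mki67, which encodes the proliferation marker Ki-67 that coats mitotic chromosomes (chr7:135689784-135716361), went from 14.4, 13.3, 9.95 and 10.4 CPM to 224.4, 182.0, 177.8 and 141.0 CPM, a 15.1-fold change. Prc1, which bundles the microtubules of the central spindle (chr7:80294450-80316259), rose 13.6-fold, from 2.92 to 4.37 CPM to 37.7 to 54.4 CPM. For these 3 genes, as for Cdk1 and Kif11, replicate 4 was the lowest WT day 7 library. Hmmr, a spindle assembly factor, rose by 4.62, the second largest change of the 38, and Nusap1, a microtubule-binding protein, by 2.69, the smallest of these 8.

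The 3 genes of mitotic exit rose by a median log2 change of 2.48. Cdc20, the APC/C activator (chr4:118432901-118437352), was at 2.54, 3.55, 2.48 and 2.19 CPM at WT day 0 and at 34.9, 36.97, 38.7 and 30.1 CPM at WT day 7, a change of 3.70 on the log2 scale. Ube2c, the ubiquitin-conjugating enzyme of the APC/C, rose by 2.48 on the log2 scale, and Espl1 (chr15:102296266-102324357) by 1.90, from 8.83 ± 1.07 to 33.1 ± 4.09 CPM. Ube2c shares 592 exonic bases, 22.8% of its exonic length, with Tnnc2, a fast muscle troponin gene on the opposite strand. Tnnc2 was at 14.4 ± 5.90 CPM at WT day 0 and 0.245 ± 0.136 CPM at WT day 7. The strand setting of the counting is not given in the sources used here, so reads of the 2 genes may be mixed and the Ube2c values are uncertain. Genes on the opposite strand also share exonic bases with 29.3% of Kif20a (Cdc23), 15.1% of Kif4 (Pdzd11), 12.5% of Ccna2 (Exosc9) and 11.1% of Prc1 (Rccd1), and 6 other members share 1.35% to 7.09% with a gene on either strand. Ccnb1, Ccnb2 and Kif4 have pseudogenes named after them. Ccnb2-ps was at 1.84 CPM at WT day 0 and 0.935 CPM at WT day 7.

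**Figure D2:**
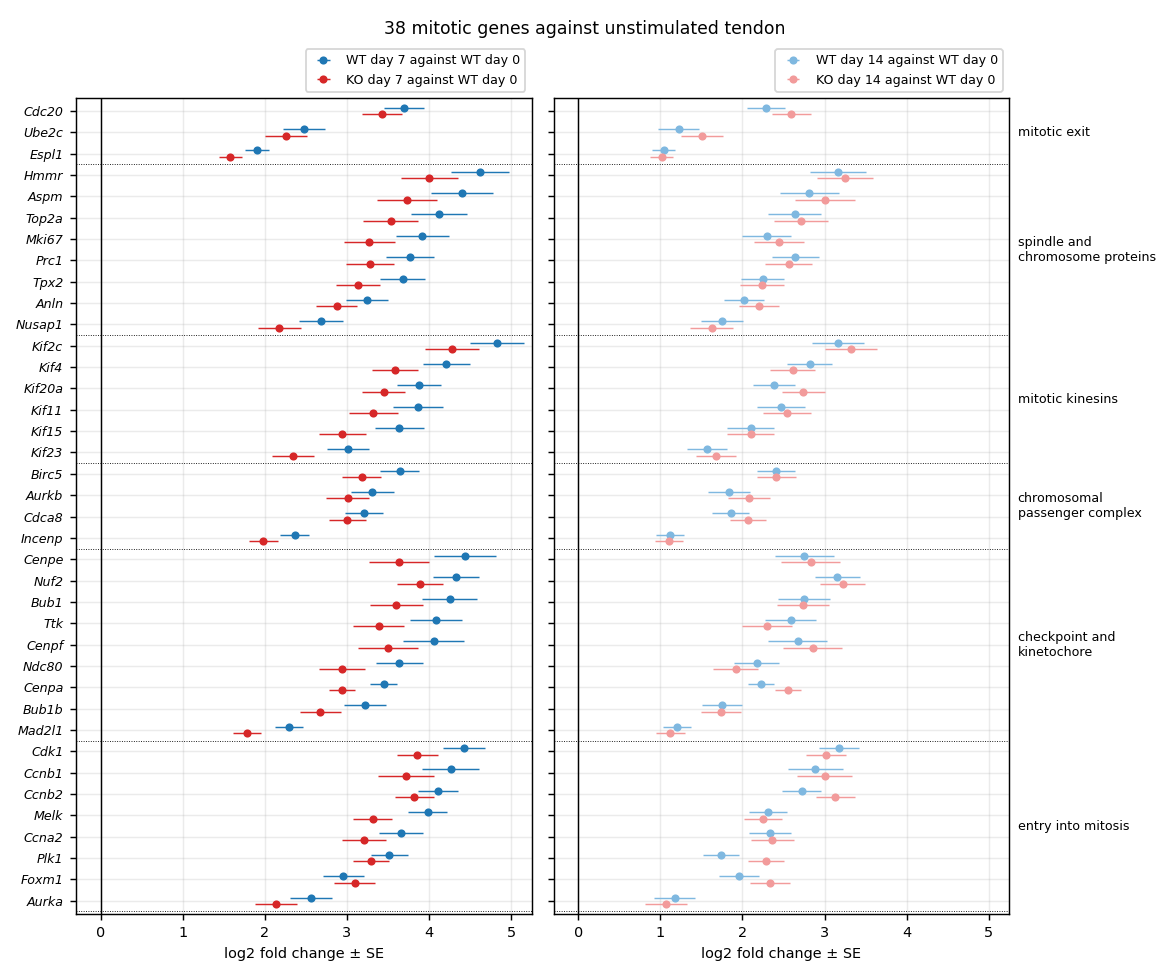
Log2 fold change with its SE of each of the 38 genes against WT day 0, by role, for WT and KO at day 7 (left) and day 14 (right). All points lie to the right of 0, with Kif2c highest and Espl1 lowest at WT day 7.

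Per length, the order of the genes changed between rest and growth at the top of the list. At WT day 0 the 5 highest were Incenp, Cdc20, Ccnb2, Ube2c and Aurka. In each of the 4 stimulated groups they were Ccnb2, Cdc20, Mki67, Top2a and Ccna2. Ranks at WT day 0 were close. Ube2c at 1.29 ± 0.28, Aurka at 1.28 ± 0.24 and Mki67, at rank 6, at 1.19 ± 0.22 FPKM differed by less than their SDs. Ccnb2, which encodes cyclin B2, was at 1.37 ± 0.14 FPKM at WT day 0 and 23.6 ± 2.94 FPKM at WT day 7 (SD, n = 4). The next in order at WT day 7 were Cdc20 at 18.8 ± 1.997 FPKM and Mki67 at 18.02 ± 3.39 FPKM. Cdc20 and Mki67 differed by less than their SDs, while Ccnb2 lay above Cdc20 by more than either SD. Kif15, a spindle kinesin, was lowest at WT day 7, at 1.86 FPKM, and the median of the 38 genes went from 0.627 to 5.91 FPKM.

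By day 14 the WT levels had fallen but stayed above rest. Against WT day 0 all 38 genes were still higher, with a median log2 change of 2.30 and a range from 1.04 for Espl1 to 3.18 for Cdk1, and 28% of all genes were called higher. Against WT day 7 all 38 genes were lower, with a median log2 change of -1.39 and a range from -1.78 for Plk1 to -0.86 for Espl1, while 14.3% of all genes were called lower. The fitted day 14 level was a median 38% of the day 7 level. The libraries of WT day 14 and WT day 7 did not overlap for 37 of the 38 genes, all but Nusap1, against 12.7% of all genes in this direction. Summed over the 38 genes, WT day 14 stood at 572.4 ± 223 CPM.

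Plk1 fell furthest, from 19.2, 20.7, 26.4 and 18.6 CPM at WT day 7 to 5.41, 9.01, 4.30 and 5.92 CPM at WT day 14 (log2 -1.78 ± 0.21 SE, adjusted p = 8.41e-06). Cenpe followed at -1.69 and Melk, which encodes a kinase of dividing cells, at -1.67. For Foxm1 the libraries of WT day 14 were at 10.7, 19.9, 10.9 and 25.8 CPM, and the log2 change was -0.995 ± 0.23 (adjusted p = 0.00317). Mki67 was at 55.2, 90.5, 25.6 and 63.9 CPM at WT day 14, and Cdk1 at 20.5, 28.1, 11.8 and 23.5 CPM. In both genes replicate 2 was highest and replicate 3 lowest.

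That order of libraries ran through the set. Within WT day 14, replicate 3 was the lowest library for 36 of the 38 genes, at a median 54.8% of the group mean, and replicate 2 was the highest for 34, at a median 148%. The median coefficient of variation of the 38 genes was 42.1% at WT day 14, against 15.6% to 23.3% in the other 4 groups. Over all genes tested it was 17.9% at WT day 14 and 12.4% to 15.3% elsewhere. Other groups also had an order: WT day 7 replicate 4 was lowest for 37 genes, KO day 7 replicate 1 highest for 34 and KO day 14 replicate 1 lowest for 30. In the WT day 14 libraries, replicates 1 to 4, the 38 genes summed to 517, 855.5, 317 and 600 CPM and the muscle fibre markers to 15200, 3320, 5347 and 26160 CPM. The macrophage markers summed to 3966, 3535, 3655 and 4116 CPM and the tendon fibroblast markers to 65490, 80630, 92720 and 148500 CPM. None of these 3 marker sums had its highest and lowest library where the mitotic genes did. Replicate 2, the highest for the mitotic genes, had the lowest muscle fibre and macrophage sums. The part of these and of other cell types in the spread was not tested.

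**Figure D3:**
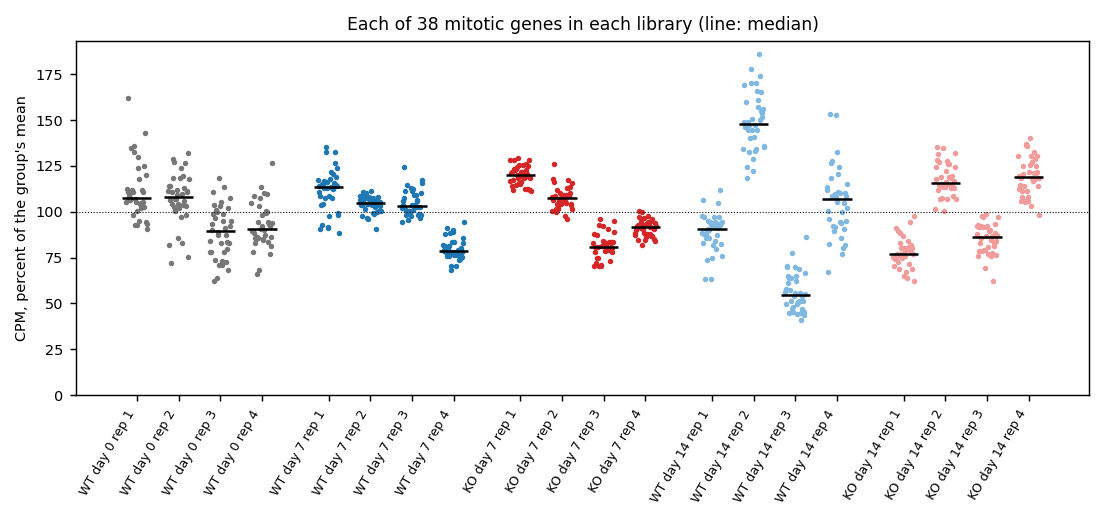
Level of each of the 38 genes in each library as a percent of that gene's mean over the 4 libraries of its group, with the median as a line. At WT day 14 the median runs from 54.8% in replicate 3 to 148% in replicate 2, and in each of the other groups it stays between 77.1% and 120%.

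The KO groups have no resting KO group beside them and were compared with WT day 0. Against WT day 0, all 38 were higher at KO day 7 (median log2 3.28; 29.4% of all genes called higher) and all 38 at KO day 14 (median log2 2.39; 25.4% of all genes). These comparisons share the WT day 0 libraries with those of the WT groups. Espl1 changed least and Kif2c most at both KO days, at 1.58 and 4.28 at day 7 and at 1.02 and 3.32 at day 14. The summed level was 1057 ± 181 CPM at KO day 7 and 616.2 ± 133 CPM at KO day 14.

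From KO day 7 to KO day 14, 24 of the 38 genes fell, 14 did not pass the test, and all 38 estimates were negative (median log2 -0.81), while 8.57% of all genes were called lower. The fitted day 14 level was a median 57% of the day 7 level. The libraries did not overlap for 29 genes, against 11.3% of all genes. By role, 7 of 8 entry genes, 5 of 9 checkpoint and kinetochore genes, all 4 passenger complex genes, 4 of 6 kinesins, 1 of 8 spindle and chromosome genes and all 3 exit genes passed. The roles differed little in median log2 change. It was -0.84 for entry, -0.80 for checkpoint and kinetochore and -0.90 for passenger complex genes. For kinesins it was -0.81, for spindle and chromosome genes -0.735 and for exit genes -0.753. Ttk, the checkpoint kinase MPS1, changed most, at -1.08, followed by Aurka at -1.07 and Melk at -1.06. Plk1 fell from 20.7, 21.1, 14.2 and 16.8 CPM to 6.73, 11.6, 8.29 and 9.59 CPM (log2 -1.01 ± 0.20 SE, adjusted p = 0.00269). Mki67 was at 148.2, 120.1, 90.2 and 104.7 CPM at KO day 7 and at 52.6, 73.8, 49.8 and 85.2 CPM at KO day 14, without overlap, yet its adjusted p was 0.0587. Cenpa, which encodes the histone of the centromere, had the smallest change, -0.38 (adjusted p = 0.0824). The number of genes that passed was 10 without KO day 14 replicate 1, 13 without KO day 7 replicate 1, and 14 without KO day 7 replicate 2 or KO day 14 replicate 3.

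At day 7 the genes were mostly lower in KO than in WT tendon, and for most of them the difference did not pass the test. The estimate was negative for 37 of the 38 genes, with a median log2 difference of -0.53, so that the KO level was a median 69.4% of the WT level; the median over all genes was -0.01. Only 3 genes passed the test, all lower: Cenpa, Mad2l1 and Melk. This is 3 of 38, against 5.42% of all genes called lower. With edgeR 19 of the 38 stood at an unadjusted p below 0.05 (30.5% of all genes). There were 23 with DESeq2 (31.7%) and 28 with limma-voom (31.3%). The 38 genes share their libraries and are not independent of each other. The libraries of the 2 groups did not overlap for 5 of the 38 genes (Cenpa, Mad2l1, Ndc80, Incenp and Kif23), against 10.3% of all genes in this direction. Foxm1 was the only gene with a positive estimate, 0.14 ± 0.23 (adjusted p = 0.729), at 41.3, 40.0, 32.2 and 34.3 CPM in KO and 31.1, 35.3, 37.4 and 30.5 CPM in WT libraries.

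Cenpa was at 59.1, 57.4, 55.1 and 48.6 CPM at WT day 7 and at 46.4, 39.6, 37.2 and 31.6 CPM at KO day 7, a log2 difference of -0.51 ± 0.15 (adjusted p = 0.026). Melk was at 20.5, 19.2, 18.1 and 13.5 CPM and then 13.8, 11.4, 8.34 and 11.2 CPM, a difference of -0.67 ± 0.20 (adjusted p = 0.033). Mad2l1 was at 30.7, 30.0, 25.9 and 22.0 CPM and then 21.8, 19.4, 17.6 and 17.4 CPM, a difference of -0.51 ± 0.16 (adjusted p = 0.0427). The groups did not overlap for Cenpa and Mad2l1, while for Melk the highest KO library passed the lowest WT library. The largest difference of the 38, -0.81 ± 0.32 for Cenpe, did not pass (adjusted p = 0.0938), and neither did Cdk1, at 43.0, 33.8, 27.9 and 29.6 CPM in KO (-0.57 ± 0.21, adjusted p = 0.0767). Plk1 and Cdca8 differed least among the negative estimates, at -0.22 and -0.20.

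The number that passed at day 7 depended on the fit. It was 8 with DESeq2, 12 with limma-voom and 22 when only the WT day 7 and KO day 7 libraries set the spread. The genes called lower over the whole table also moved, from 1025 to 1473, 1283 and 1364 in these fits. None of the 38 passed when WT day 7 replicate 1, 2 or 3 or KO day 7 replicate 2, 3 or 4 was left out. Across the 17 alternatives, 36 or 37 of the 38 estimates were negative in each. The alternatives reuse the same libraries and the 38 genes share them, so these signs are not independent of each other. Markers of other cells moved with the genotype at this day. Of the 20 muscle fibre markers, 15 were higher in KO; they summed to 291.8 to 2153 CPM in WT and 5931 to 14530 CPM in KO libraries. Of the 10 tendon fibroblast markers, among them Scx itself, 5 were higher, with sums of 49200 to 61010 CPM in WT and 90190 to 110100 CPM in KO. The 15 macrophage markers summed to 4398 to 7571 CPM in WT and 4528 to 6323 CPM in KO. Only Tyrobp passed the test, as lower, while 14 of the 15 estimates were negative (median log2 -0.26). None of these markers was at 0. Of 8 keratinocyte markers 4 were higher in KO, with sums of 3.98 to 11.4 CPM in WT and 6.42 to 761.9 CPM in KO. The KO sum was 198.7 ± 375.5 CPM (SD, n = 4), and a single library held most of it. Of 7 mast cell markers 4 were lower. With the muscle score as a covariate the median difference was -0.51 and 0 genes passed. In that fit 247 genes of the whole table were called lower, against 1025 in the main fit. The muscle sums of the groups did not overlap, so muscle content and genotype cannot be told apart by this fit. The part of the other cell types was not tested.

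**Figure D4:**
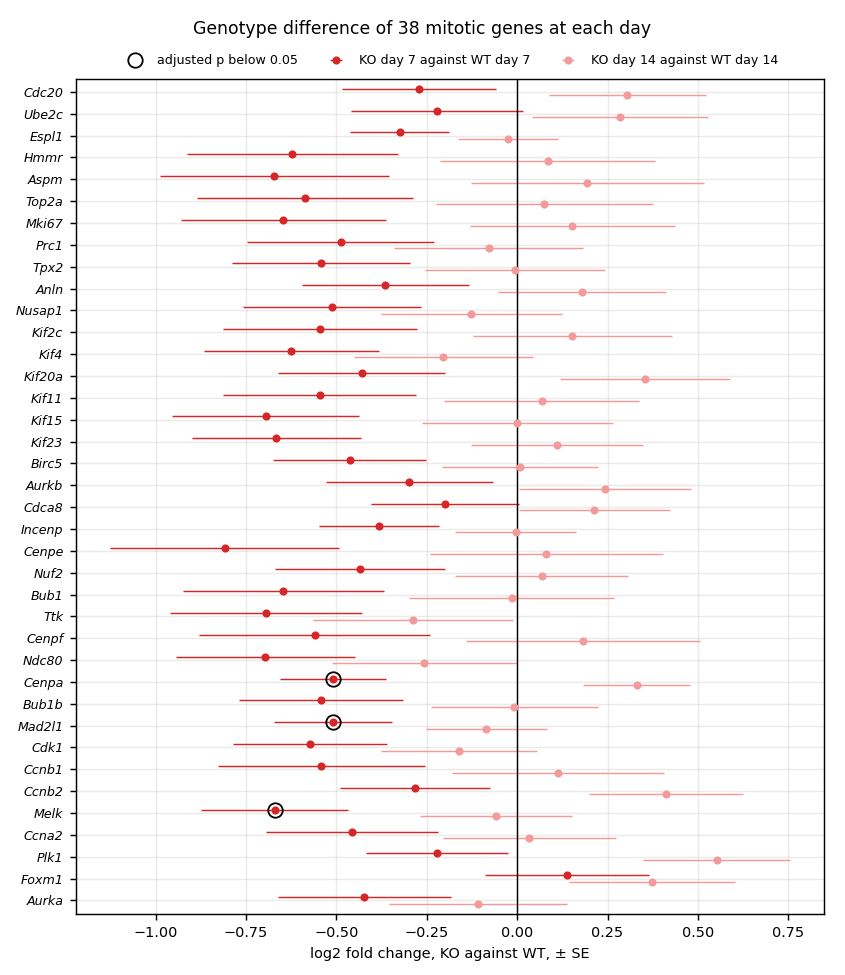
Log2 difference between KO and WT libraries, with its SE, for each of the 38 genes at day 7 (dark) and day 14 (light); circles mark an adjusted p below 0.05. At day 7 all points but Foxm1 lie left of 0 and 3 are circled, and at day 14 the points lie on both sides of 0.

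At day 14 no gene of the 38 passed between KO and WT, where 1.78% of all genes were called in either direction. At an unadjusted p below 0.05 there were 2 of the 38, Plk1 and Cenpa, with edgeR (16.7% of all genes), 2 with DESeq2 (17.1%) and 2 with limma-voom (15.6%), so the share of the 38 was below that of all genes. DESeq2 and limma-voom also called 0 of the 38 after adjustment. The estimates were positive for 23 genes and negative for 15, with a median of 0.07 and a range from -0.29 for Ttk to 0.55 for Plk1. The libraries overlapped for all 38 genes, while 6.13% of all genes were separated. Plk1 was at 5.41, 9.01, 4.30 and 5.92 CPM in WT and 6.73, 11.6, 8.29 and 9.59 CPM in KO (adjusted p = 0.173). Ccnb2 had the next largest estimate, 0.41, and Foxm1 0.37. The direction rested on single libraries: without WT day 14 replicate 2 the estimates were positive for 37 genes (median 0.33) and Cenpa passed, and without WT day 14 replicate 3 they were positive for 9 (median -0.15).

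The change of the genotype difference between days, tested as an interaction, passed for none of the 38 genes and for 0% of all genes with edgeR. At an unadjusted p below 0.05 stood 6 of the 38 with edgeR (10.8% of all genes), 9 with DESeq2 (11.8%) and 12 with limma-voom (10%). DESeq2 called 1 of the 38 after adjustment, Cenpa, and 190 of 18167 genes over the whole table. With limma-voom 0 of the 38 and 0 of all genes passed. All 38 interaction estimates were positive, with a median log2 value of 0.54, from 0.24 for Foxm1 to 0.89 for Cenpe. The median was 0.34 without WT day 14 replicate 3 and 0.80 without WT day 14 replicate 2. A positive value means that the level fell less from day 7 to day 14 in KO than in WT libraries. For Cenpa the WT level at day 14 was 42.8% and the KO level 76.6% of that at day 7 (interaction 0.84 ± 0.21 SE, adjusted p = 0.17 with edgeR). The sign was positive for all 38 genes in each of the 25 alternative fits, but these genes share their libraries and are not independent of each other.

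Other genes of division were taken from lists of their pathway. Their counts from WT day 0 to WT day 7 stand beside 32.3% of all genes called higher and 31.8% lower. From WT day 0 to WT day 7, 41 of 45 other spindle, kinesin and cytokinesis genes rose and 1 fell (median log2 3.07), and 38 of 42 other kinetochore and checkpoint genes rose and 1 fell (median 2.03). Fam83d, a spindle protein, rose by 3.85 and Ska1, a kinetochore protein, by 4.24. The genes that fell in these lists, named after their values were seen, were Numa1, a spindle pole protein, which fell by 0.60, and Cenpb, a centromere DNA-binding protein, which fell by 0.56. Of 37 DNA replication genes, 36 rose and none fell, by a median of 1.49; Rrm2, a subunit of ribonucleotide reductase, rose by 3.31, and Rpa2, at 0.25, did not pass (adjusted p = 0.0738).

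The median changes were smaller for the APC/C and for cohesion. Of 14 APC/C core subunits 9 rose and 2 fell, with a median log2 change of 0.38, and their summed level was 1104 ± 10.01 CPM at WT day 0 and 1074 ± 38.9 CPM at WT day 7. Cdc16 rose by 1.01, Anapc5 fell by 0.73 and Anapc13 fell by 0.57. Of 21 condensin, cohesin and separation genes 16 rose and 1 fell (median 0.47). The condensin gene Ncaph rose by 3.25 and the cohesin protector Cdca5, or sororin, by 3.44. The gene that fell was Pttg1, which encodes securin, the inhibitor of separase: it was at 36.6 ± 2.41 CPM at WT day 0 and 16.3 ± 0.52 CPM at WT day 7 (log2 -1.16 ± 0.10 SE, adjusted p = 4.74e-09), and at 17.3, 18.6 and 18.4 CPM at KO day 7, WT day 14 and KO day 14. Of 19 other regulators of entry 14 rose and 3 fell. Cdc25c, the phosphatase that activates CDK1, rose by 4.83, from 0.267 to 7.83 CPM, while Lin52, a subunit of the MuvB complex that binds the CHR, fell by 1.02, Ensa fell by 0.64 and Arpp19 fell by 0.28.

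Between KO and WT at day 7, 8 of the 37 DNA replication genes were lower and all 37 estimates were negative, with a median of -0.39; Prim2, a primase subunit, differed by -0.45 (adjusted p = 0.0113) and Cdt1, a licensing factor, by -0.03 (adjusted p = 0.937). Of the condensin, cohesin and separation genes 10 of 21 were lower, and of the other spindle genes 8 of 45, where 5.42% of all genes were called lower. Fewer passed among the other kinetochore and checkpoint genes, with 5 of 42 lower and 1 higher, and the other regulators of entry, with 2 of 19 lower. Cenpb was higher, by 0.47 on the log2 scale (adjusted p = 0.00932). Hjurp, the chaperone that loads the centromere histone encoded by Cenpa, differed by -0.69 (adjusted p = 0.00472), and Haus4, a subunit of the augmin complex of the spindle, by -0.57 (adjusted p = 0.00286). Of the APC/C core subunits Anapc4, Anapc1 and Cdc27 were lower, 3 of 14. These lists were compiled with earlier results of these data known.

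**Figure D5:**
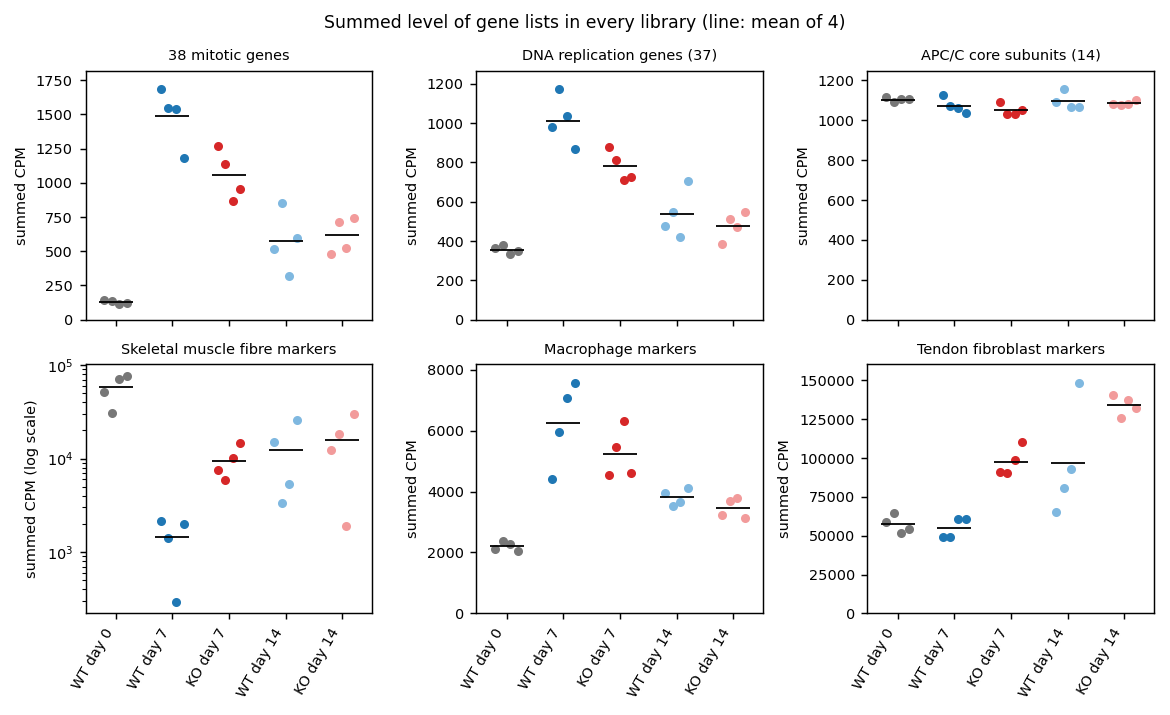
Summed CPM of the 38 mitotic genes, 37 DNA replication genes, 14 core subunits of the APC/C and the markers of muscle fibres (log scale), macrophages and tendon fibroblasts in each library, with the mean of 4 as a line. The mitotic genes go from 129.7 CPM at WT day 0 to 1488 CPM at WT day 7, while the APC/C subunits stay between 1032 and 1156 CPM in all libraries.

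The rise and fall of the mitotic genes also ran beside changes in the makeup of the tissue. From WT day 0 to WT day 7, 18 of 20 muscle fibre markers fell and 1, Tnnt1, rose, and their sum went from 30540 to 77130 CPM to 291.8 to 2153 CPM. Between these groups 32.3% of all genes were called higher and 31.8% lower. From WT day 7 to WT day 14 it was 16% higher and 14.3% lower. Of the 15 macrophage markers 14 rose, with sums of 2051 to 2383 CPM at WT day 0, and from WT day 7 to WT day 14 12 of them fell, to sums of 3535 to 4116 CPM. Of 7 neutrophil markers tested 5 rose to day 7 and 5 fell by day 14, with mean sums of 6.87, 118.8 and 32.0 CPM at WT days 0, 7 and 14. Of 12 markers of muscle progenitors and immature fibres 7 rose and 1 fell to day 7 (median log2 change 3.41), and 3 fell and 1 rose by day 14, while their mean sum went from 1587 to 407.2 and 830.6 CPM. All 8 adipocyte markers fell to day 7. Over the same second week 18 muscle fibre markers and 9 of 10 tendon fibroblast markers rose in WT tendon. Which cells carried the mitotic transcripts, and the part of these shifts in the changes above, was not tested. With the muscle score as a covariate the median change of the 38 genes from WT day 0 to WT day 7 was 3.77, and all 38 passed. In that fit 3241 of all genes were called higher, against 6110 in the main fit. The muscle sums of these groups did not overlap, so muscle content and day cannot be told apart by this fit.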

How the data were processed

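RNA from plantaris tendon was sequenced in 20 libraries (5 groups of 4). Per the submitters' processing notes, FastQC, STAR, edgeR and the mm10 build were used. The counting tool, its strandedness, the annotation and tool versions were not given in the sources used here. The authors deposited whole-number counts per gene, which were used as deposited, and a table of their own log2 fold changes and p-values, read only as a check. In the authors' deposited table all 38 genes were higher in each comparison with WT day 0 and 3 were lower at KO day 7 against WT day 7; its log2 values lay within 0.0236 of those computed here.

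Counts were tested with edgeR 4.0.16 (R 4.3.3): TMM scaling, filterByExpr, a robust quasi-likelihood fit of all 20 libraries with 1 mean per group, and Benjamini-Hochberg adjustment over 18918 genes, called below 0.05. DESeq2 1.42.0, limma-voom (limma 3.58.1), other scalings and filters, a replicate block, a muscle covariate and each library left out were alternatives. The fit was tested on simulated data. FPKM used exon lengths of GENCODE vM21 (GRCm38); promoters are from RefSeq. Since no label ties a replicate to its own animal, p-values cover only library-to-library spread, which may be technical. No pair of libraries of a group agreed within counting noise. The 38 genes and all lists were chosen with earlier results of these data known. Any of the 38 could be named; 12 fixed genes are given by library, with the 3 largest and 3 smallest changes of a comparison, and up to 4 passing and 4 not passing genes of other lists.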

Additional observations from a re-analysis of the deposited data

Results flagged for a closer look

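Ccnb1 stood at 1.254 CPM in WT day 0 replicate 1, while the other 3 WT day 0 libraries lay between 0.6017 and 0.6344 CPM. The gap to the nearest library was 0.95 of the range of the group, above Dixon's 95% critical value for 4 libraries. This was 1 of 65 groups of values tested, where chance flags about 1 in 20. Against WT day 0, Ccnb1 was called higher in every comparison with and without that library.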

How the results depend on the processing

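Calls of all 38 genes against WT day 0 did not change in any alternative, and WT day 14 against WT day 7 kept at least 37. For KO day 7 against WT day 7, where 3 genes passed, 8 passed with DESeq2, 12 with limma-voom, 22 with only the groups compared, 8 with the replicate block and 0 with the muscle score as a covariate; leaving out each library gave 0 to 4. DESeq2 called 1 of the 38 genes for the interaction, and 190 of 18167 genes over the whole table. Leaving out a library gave 10 to 27 genes for KO day 14 against KO day 7 (24 in the full fit; 30 with the replicate block) and 0 to 1 for KO day 14 against WT day 14. The replicate numbers were not taken as pairs: 14 of 40 same-numbered pairs correlated above 0.1 (range -0.165 to 0.272), and 7 of 20 libraries correlated best with their own number. The block changed no other count by over 1.5 times.

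Log2 differences near 0 changed sign. At day 7, Plk1 was 0.00853 with the muscle covariate. At day 14, Bub1b was 0.000226 with RLE scaling, 0.000812 with DESeq2, 0.0288 with limma-voom, 0.00109 with only the groups compared and 0.0294 with the replicate block, and Prc1 was 0.00403 with limma-voom. With each library left out, the day 14 difference ran from -0.355 to 0.0148 for Cdk1, -0.198 to 0.227 for Bub1b, -0.312 to 0.277 for Prc1, -0.0742 to 0.496 for Ccnb1, -0.0459 to 0.57 for Cenpf, -0.154 to 0.317 for Kif11, -0.166 to 0.348 for Top2a and -0.0954 to 0.439 for Mki67. The cause of these changes was not tested.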
